A study of Mus musculus with 3 samples.

Results

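The collagen chain genes were examined as a family in 3 mouse lung cancer cell lines, and they were taken as all genes whose platform symbol reads Col, a type number, a and a chain number. By that rule 91 probes of 41 genes were found among the 19057 genes with a named probe. A further 3 collagen chain genes of the RefSeq table have no paired probe and are not analysed here, so every count and order below holds for these 41 genes. The LLC/luc line derives from Lewis lung carcinoma of the C57BL/6 mouse and carries luciferase, by which metastases are seen in live animals. LLC/luc BM1st was cultured from tibial bone lesions that formed after the parental cells, LLC/luc P, had been injected into the left ventricle of mice, and LLC/luc BM2nd was cultured from bone after BM1st cells had been injected in turn. The hosts were male C57BL/6 mice, and all 3 lines were grown in DMEM with serum, carry luciferase and received no other treatment that the labels name. RNA of each line was hybridised to a mouse whole-genome bead array of Illumina, with 1 array per line and 1 colour. Each sub-line is 1 culture, so what belongs to the selection and what belongs to that culture cannot be told apart. There were no replicates, so no test was possible and precision is limited by having so few arrays.

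Collagens are trimers of alpha chains that wind into a triple helix, and the chains of 1 type are encoded by separate genes. Fibrillar collagens form the banded fibres of bone, skin and tendon, with types I, III and V in most connective tissue and types II and XI in cartilage. Type IV forms the sheet of basement membranes, type VI the beaded filaments around cells, and FACIT collagens decorate fibrils without forming them. Type I collagen is the main protein of bone, and cells reach it through integrins and discoidin domain receptors.

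The values are linear intensities from which the background was not subtracted. As a background level served the 95th percentile of the 1506 olfactory and vomeronasal receptor probes, at 109 in parental, 110 in BM1st and 107 in BM2nd cells, and the brightest probe of a gene stands for it. Of the 41 genes 10 were above background on all 3 arrays, 23 on at least 1 and 18 on none. Of all 19057 genes with a named probe, 10938 were above background on at least 1 array, a similar share. The label of a carcinoma cell was partly borne out by the markers. The epithelial keratins Krt8 and Krt18 were above background on all 3 arrays, as was Cdh1, close to it at 121, 116 and 125 in parental, BM1st and BM2nd cells. Epcam and Krt19 were on none, and the mesenchymal filament gene Vim had an intensity of 8296 in parental cells. The labels give all 3 lines, parental cells included, the same cell type. Differences are read between lines within a gene, since intensities of different probes are not on 1 scale.

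**Figure D1:**
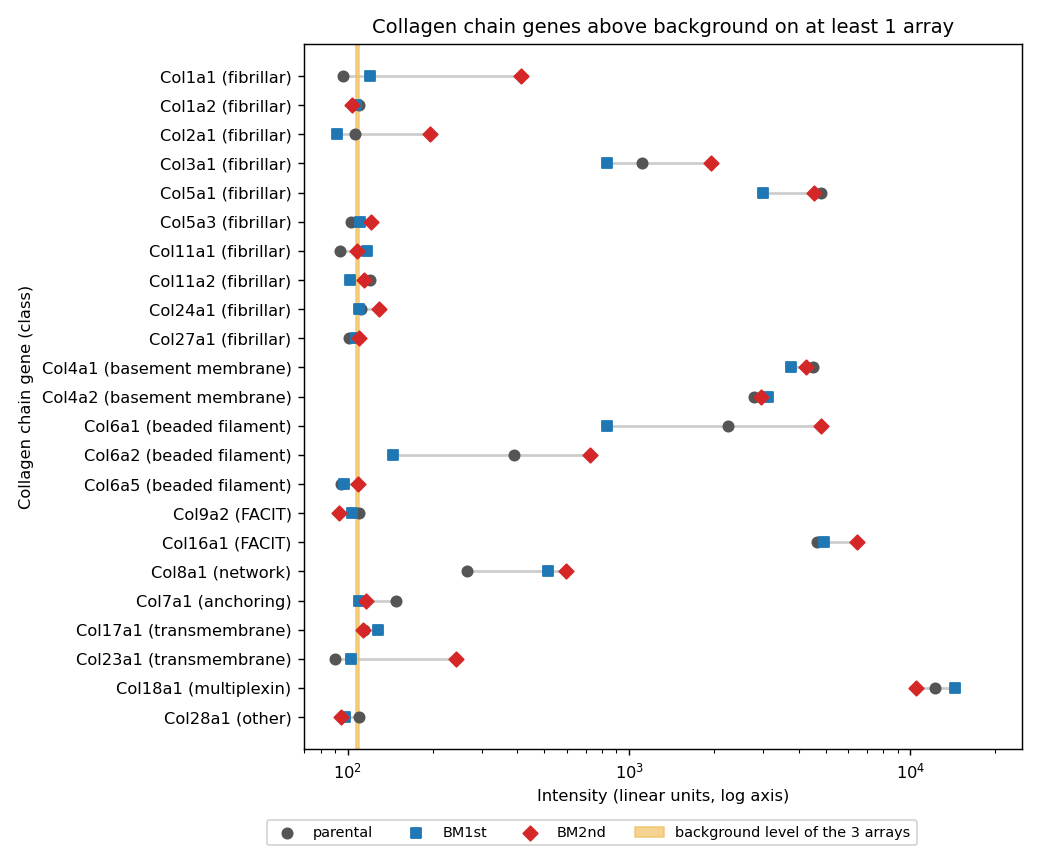
Intensity (horizontal log axis, linear units) of the 23 collagen chain genes above background on at least 1 array, with their class, in LLC/luc parental (circles), BM1st (squares) and BM2nd cells (diamonds), 1 array each; the band holds the background levels of the 3 arrays. Col6a1 and Col6a2 are lowest in BM1st and highest in BM2nd cells, and the 3 lines lie close together at Col4a1 and at Col4a2.

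Some chain genes sit beside each other in the genome, and the RefSeq table (assembly GRCm38.p6) places Col6a2 at chr10:76595756-76623630 and Col6a1 at chr10:76708792-76726044, with 85161 bases between them. Col4a1 and Col4a2 lie head to head on chromosome 8 and overlap by 85 bases, so that their starts share 1 stretch of DNA. The promoter windows of these 4 genes (250 bases before to 50 after a start, from RefSeq, 5′ to 3′ on the gene's strand) are shown because the first pair had the 2 largest ratios of the 41 genes between the sub-lines, without background subtraction, and the second pair small ones. Capitals mark the CCAAT box (letters CCAAT), the GC box (letters GGGCGG) and the TATA box (letters TATAAA), each searched on both strands, so that their reverse complements are in capitals too. Col6a2 has 2 windows, from 2 listed starts.
Col6a1, chr10:76725995-76726294, minus strand: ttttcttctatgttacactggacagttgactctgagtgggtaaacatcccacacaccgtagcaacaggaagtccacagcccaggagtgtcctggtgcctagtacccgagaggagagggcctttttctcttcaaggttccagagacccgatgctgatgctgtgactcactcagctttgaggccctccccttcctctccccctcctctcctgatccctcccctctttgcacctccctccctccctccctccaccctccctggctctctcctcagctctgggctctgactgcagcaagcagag
Col6a2, chr10:76623355-76623654, minus strand: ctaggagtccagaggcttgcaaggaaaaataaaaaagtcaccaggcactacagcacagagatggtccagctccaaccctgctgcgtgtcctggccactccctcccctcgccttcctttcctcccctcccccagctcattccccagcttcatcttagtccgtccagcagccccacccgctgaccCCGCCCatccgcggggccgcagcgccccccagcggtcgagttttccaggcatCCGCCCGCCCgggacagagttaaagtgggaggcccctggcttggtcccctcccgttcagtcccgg
Col6a2, chr10:76623581-76623880, minus strand: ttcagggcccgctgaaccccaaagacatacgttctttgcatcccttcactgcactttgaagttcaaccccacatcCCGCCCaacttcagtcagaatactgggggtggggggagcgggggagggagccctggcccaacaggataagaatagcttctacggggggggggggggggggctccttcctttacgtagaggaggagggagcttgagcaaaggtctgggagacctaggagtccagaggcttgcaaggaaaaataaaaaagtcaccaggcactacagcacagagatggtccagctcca
Col4a1, chr8:11312777-11313076, minus strand: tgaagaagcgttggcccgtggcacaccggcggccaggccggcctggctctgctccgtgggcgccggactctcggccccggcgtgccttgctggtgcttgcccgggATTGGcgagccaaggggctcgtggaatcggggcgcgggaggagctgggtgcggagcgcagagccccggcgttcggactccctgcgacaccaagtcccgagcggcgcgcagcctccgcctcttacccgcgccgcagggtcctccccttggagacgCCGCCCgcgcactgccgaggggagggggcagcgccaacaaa
Col4a2, chr8:11312555-11312854, plus strand: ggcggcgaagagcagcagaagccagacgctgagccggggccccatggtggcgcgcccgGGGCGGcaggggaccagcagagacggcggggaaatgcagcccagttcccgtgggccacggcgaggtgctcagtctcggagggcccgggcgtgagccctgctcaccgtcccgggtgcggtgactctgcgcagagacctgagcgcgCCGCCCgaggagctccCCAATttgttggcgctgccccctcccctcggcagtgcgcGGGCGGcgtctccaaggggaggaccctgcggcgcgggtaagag
The Col6a1 window holds none of the 3 motifs, and those of Col6a2 hold 3 and 1 matches to GGGCGG. The Col4a1 window holds 1 CCAAT and 1 GGGCGG and that of Col4a2 holds 1 CCAAT and 3 GGGCGG, with 78 bases shared between the windows. Of all 32851 RefSeq windows, 37.4% hold CCAAT, 35.7% GGGCGG and 13.6% TATAAA. Among 36 windows of 33 collagen chain genes the shares were 36.1%, 63.9% and 13.9%. A match is a description of these letters and not a site.

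In BM2nd cells 1 chain gene each of the fibrillar, beaded filament, network and transmembrane collagens was past the threshold against parental cells, and no basement membrane chain was. Genes above background on either array of a pair were compared, and a log2 ratio past 1 or -1, the threshold of the study, was called higher or lower. In RNA of a whole culture fewer cells of a type and less RNA per cell cannot be told apart. Of 23 members compared, 4 were higher in BM2nd than in parental cells (Col1a1, Col6a1, Col8a1 and Col23a1) and none was lower. Over all 10580 genes compared, 1.83% were higher and 1.53% were lower. Members could enter through the line in which they were bright, so the median is given over all 41 with no filter: it was 0.04, against -0.0016 over all genes. The 18 members never above background have ratios near 0 and pull this median towards 0, so it says little of the RNA of the family. With the background subtracted it was -0.13, but there dim intensities are set to a floor of each array. That value is the ratio of the floors and not a shift of the family. Just outside the threshold lay Col6a2 with a log2 ratio of 0.89 and Col3a1 with 0.81, and just inside lay Col6a1 with 1.09. Col2a1, at 0.89, was not above background in parental cells at that probe, and with the background subtracted it was past the threshold, at 2.65, as was Col6a2, at 1.09. The 2.65 depends on the floor put in place of the dim parental intensity.
In BM1st cells the members past the threshold were chains of type VI collagen. Of 19 members compared, none was higher and 2 were lower than in parental cells, Col6a1 and Col6a2, against 2.04% higher and 1.79% lower of all 10380 genes compared. The median over all 41 members was -0.0074, against -0.00072 over all genes. Between the sub-lines 6 of 20 members were higher in BM2nd than in BM1st cells (Col1a1, Col2a1, Col3a1, Col6a1, Col6a2 and Col23a1) and none was lower, against 3.01% and 1.78% of 10564 genes. Of these 6, Col2a1 and Col23a1 were lost when both arrays had to be above background or when probes were averaged, and Col2a1 when its bound was counted, a choice made after seeing the data. The median there was 0.02 over all 41, against -0.0082 over all genes. The comparisons share arrays, so their counts are not independent of each other.

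**Figure D2:**
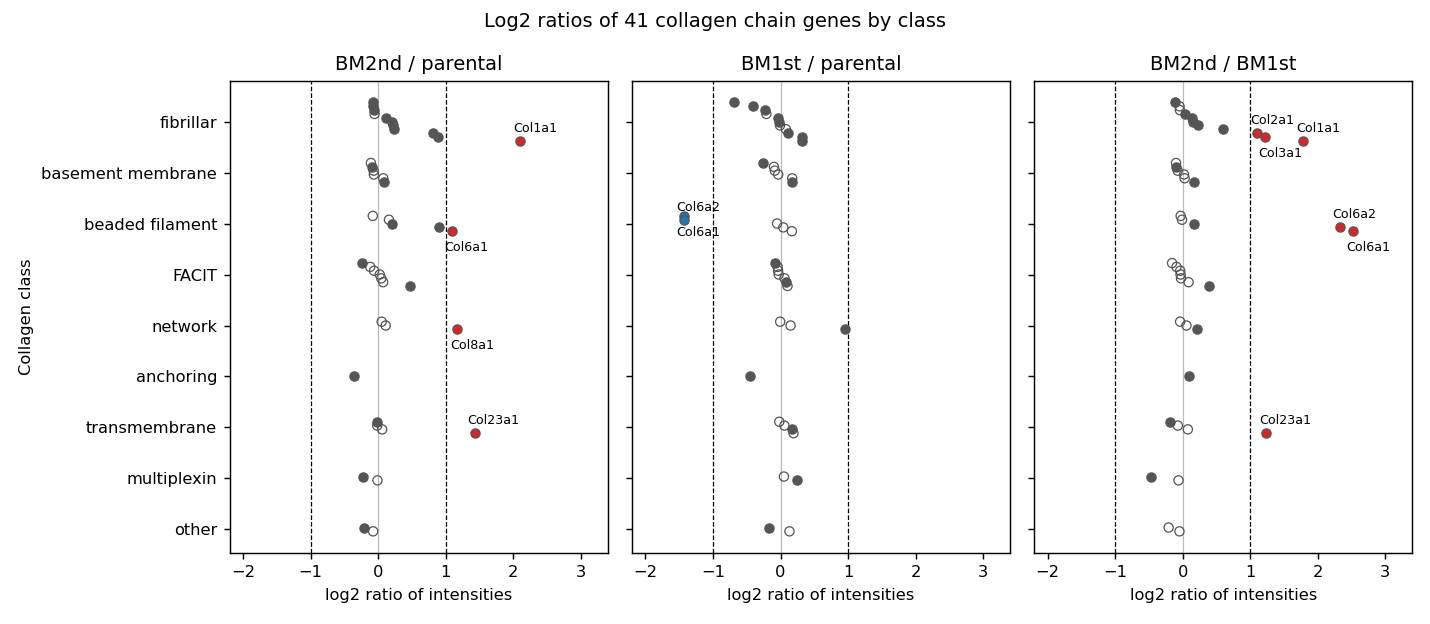
Log2 ratio of intensities (horizontal axis) for all 41 collagen chain genes by class, in the 3 comparisons, 1 array per line. Filled points are genes above background on either array of the pair, open points are not, red and blue mark genes past 1 or -1 (dashed lines), and the named genes are those past the lines; in BM1st against parental cells these are Col6a1 and Col6a2, both at -1.43.

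Among beaded filament collagens, Col6a1 and Col6a2 had the largest ratios of the 41 genes between any 2 lines, 2.52 and 2.32 between the sub-lines, in the intensities as deposited. With the background subtracted Col1a1 had the largest, 4.26 in BM2nd against parental cells, while Col6a1 had at most 2.67. The value of Col1a1 depends on the floor put in place of its dim parental intensity and is not a measured ratio. Col6a1 and Col6a2 encode the alpha 1 and alpha 2 chains of type VI collagen, which join a further alpha chain in each trimer. Col6a1 had an intensity of 2252 in parental, 833 in BM1st and 4792 in BM2nd cells. It was thus lowest in BM1st cells, 2.70-fold below parental cells (log2 -1.43), and highest in BM2nd cells, 2.13-fold above parental and 5.75-fold above BM1st cells (log2 2.52). Col6a2 had intensities of 390 in parental, 145 in BM1st and 725 in BM2nd cells. It followed the same order, with log2 ratios of -1.43 for BM1st and 0.89 for BM2nd against parental cells and 2.32 between the sub-lines. Of 10938 genes above background on at least 1 array, 130 (1.19%) were likewise lower in BM1st than in parental and higher in BM2nd than in BM1st cells past the threshold, and 2 of them were collagen chain genes. Of those 130 genes 7 were also past the threshold in BM2nd against parental cells, Col6a1 among them.
The other probes of these genes gave the same directions where they were bright. A further Col6a1 probe had intensities of 1790, 707 and 3401 in parental, BM1st and BM2nd cells and log2 ratios of -1.34 for BM1st and 0.93 for BM2nd against parental cells. The last Col6a1 probe was above background in BM2nd cells alone, at 122, with a BM2nd log2 ratio of 0.44. The other Col6a2 probe stood near background, at 138, 108 and 145, with ratios of -0.35 and 0.07. Averaged over its probes, neither gene passed the threshold against parental cells, with Col6a1 at 0.82 in BM2nd and -0.91 in BM1st cells and Col6a2 at 0.48 and -0.89.
The remaining chains of the class with a paired probe, Col6a4, Col6a5 and Col6a6, lie in a row on chromosome 9. Col6a4 and Col6a6 were above background on no array. Col6a5 stood at 94.4, 97.0 and 109 in parental, BM1st and BM2nd cells, at the background level in the last.

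**Figure D3:**
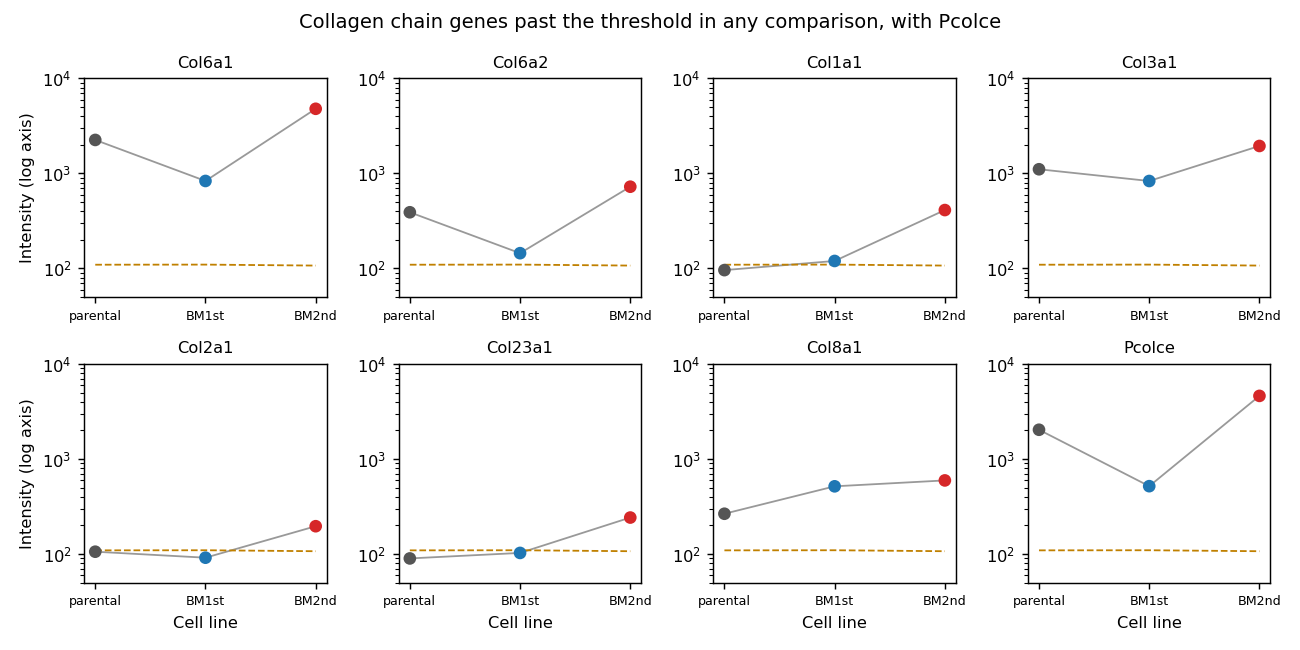
Intensity (vertical log axis, linear units) in LLC/luc parental, BM1st and BM2nd cells of the 7 collagen chain genes past the threshold in any comparison and of Pcolce, 1 array each, with the background of each array as a dashed line. Col6a1, Col6a2 and Pcolce fall to their lowest point in BM1st cells, while Col8a1 is already at 517 there.

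Of the 11 fibrillar chain genes 10 were above background on at least 1 array, but only Col3a1 and Col5a1 on all 3. Col1a1, which encodes the alpha 1 chain of type I collagen (chr11:94936224-94953042), had intensities of 96.0 in parental, 120 in BM1st and 412 in BM2nd cells. The gene has 1 probe. Parental cells gave no signal over background, so BM2nd cells were at least 3.76-fold higher than these, and 3.43-fold higher than BM1st cells. In BM1st cells it stood only slightly over background, at least 1.10-fold above parental cells. Col1a2, whose alpha 2 chain pairs with the alpha 1 chain in most type I collagen, did not follow it, with 110, 107 and 104 in parental, BM1st and BM2nd cells. Its values lie at the background level in all 3 lines, and whether that probe responds to its RNA was not tested.
Col3a1, which encodes the chain of type III collagen of soft connective tissue (chr1:45311538-45349706), had intensities of 1107 in parental, 833 in BM1st and 1946 in BM2nd cells. It was 2.34-fold higher in BM2nd than in BM1st cells (log2 1.22) and had log2 ratios of -0.41 for BM1st and 0.81 for BM2nd against parental cells. Its other probe ran in the same order, at 239, 195 and 353. Col5a2, the next collagen chain gene on that chromosome at a distance of 24624 bases, was above background on no array at any of its 5 probes.
Col5a1 encodes the alpha 1 chain of type V collagen, which starts fibrils of type I. Its intensity was 4793 in parental, 2982 in BM1st and 4527 in BM2nd cells, lowest in BM1st cells with a log2 ratio of -0.68, and nearly level between parental and BM2nd cells, at -0.08. Col2a1, the gene of cartilage type II collagen, stood at 106, 91.6 and 196 in parental, BM1st and BM2nd cells. At this probe it was above background in BM2nd cells alone and at least 1.79-fold higher there than in either other line. Its other 2 probes had BM2nd log2 ratios of 0.29 and 0.34 against parental cells, and the former was also above background in parental cells, at 115.
The 5 further fibrillar genes lay near background. Col24a1 had intensities of 111, 110 and 129 in parental, BM1st and BM2nd cells, Col5a3 of 103, 111 and 121, and Col11a1 of 93.7, 117 and 108. Col11a2 was at 119, 102 and 114 and Col27a1 at 101, 107 and 110. None of these 5 passed a log2 ratio of 1 in any comparison.

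Basement membrane collagens were steady. Col4a1 had intensities of 4504 in parental, 3761 in BM1st and 4236 in BM2nd cells, with log2 ratios of -0.26 and -0.09 for BM1st and BM2nd against parental cells. Col4a2, its head-to-head neighbour, had 2770, 3127 and 2933, with ratios of 0.17 and 0.08. These genes encode the alpha 1 and alpha 2 chains found in nearly all basement membranes. The chains of specialised membranes, Col4a3, Col4a4, Col4a5 and Col4a6, were above background on no array at their brightest probes.

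Of the 7 FACIT genes Col16a1 was above background on all 3 arrays, at 4669 in parental, 4914 in BM1st and 6464 in BM2nd cells. Its log2 ratios were 0.07 for BM1st and 0.47 for BM2nd against parental cells. Col9a2, a cartilage chain, touched background in parental cells, at 110 against 104 and 92.9 in BM1st and BM2nd cells. Col9a1, Col9a3, Col14a1, Col19a1 and Col22a1 were above background on no array at their brightest probes.

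Col8a1 belongs to the short-chain collagens that form hexagonal networks, as under vascular and corneal endothelium (chr16:57624256-57754737). Its intensities were 266 in parental, 517 in BM1st and 596 in BM2nd cells. Most of its difference was present in BM1st cells, with a log2 ratio of 0.96, just under the threshold, and it reached 1.17 in BM2nd cells. The other Col8a1 probe had 221, 395 and 464, with ratios of 0.83 and 1.07. Unlike Col6a1 and Col3a1, Col8a1 was thus higher in both sub-lines than in parental cells on each of its probes. Col8a2 and Col10a1 were above background on no array.

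Col23a1 encodes a transmembrane collagen of the cell surface, part of which is shed (chr11:51289679-51583925). It had intensities of 90.0 in parental, 103 in BM1st and 242 in BM2nd cells and was above background in BM2nd cells alone, at least 2.21-fold higher there than in either other line. Its other probe was barely over background in BM2nd cells, at 108, and gave a log2 ratio of 0.25 against parental cells, so that this gene rests on 1 of 2 probes. Col17a1, the hemidesmosome collagen, stood at 114, 128 and 113 in parental, BM1st and BM2nd cells, and Col13a1 and Col25a1 were above background on no array at their brightest probes.

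Col18a1, a multiplexin of basement membranes whose C-terminal fragment is endostatin, had intensities of 12188 in parental, 14426 in BM1st and 10464 in BM2nd cells. It went the other way from Col6a1, highest in BM1st cells, with a BM2nd log2 ratio against BM1st cells of -0.46. Its 3 probes all had positive BM1st ratios against parental cells, of 0.24, 0.79 and 0.39, but spread in BM2nd cells between -0.27 and 0.14. Col7a1, which forms the anchoring fibrils of skin, was at 149, 109 and 116 in parental, BM1st and BM2nd cells, and Col28a1 at 110, 98.0 and 94.7. Col15a1 and Col26a1 were above background on no array.
The 18 genes never above background had intensities between 80.7 and 105, and none of their log2 ratios in any comparison passed 0.21 in size. Secondary probes of Col9a1 and Col25a1 were above background on 1 array each. For these 18 genes no fold is given, and a low probe does not show that the RNA is absent.

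**Figure D4:**
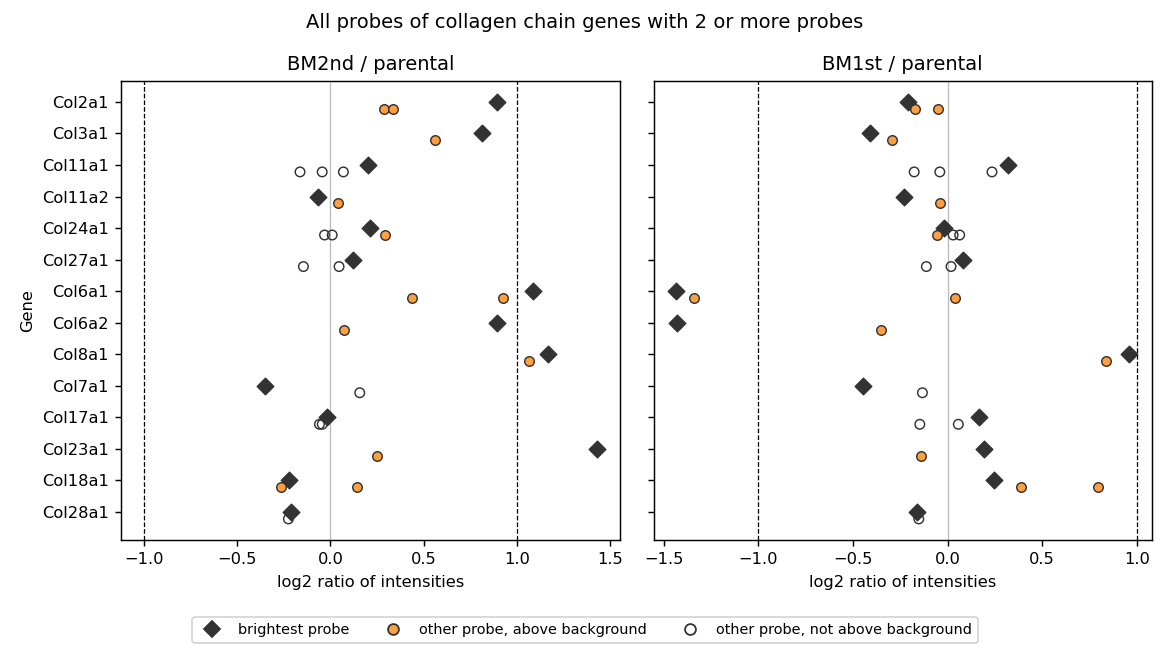
Log2 ratio of BM2nd (left) and BM1st (right) to parental intensity (horizontal axis) for each probe of the 14 collagen chain genes that have 2 or more probes and are above background on at least 1 array. Diamonds are the brightest probe used for the gene, orange circles other probes above background on at least 1 array and open circles probes that are not; the probes of Col8a1 lie close together at 1.17 and 1.07 on the left, while those of Col23a1 lie apart at 1.43 and 0.25.

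Collagen chains are hydroxylated, glycosylated and folded in the endoplasmic reticulum before secretion, and the propeptides are then cut off and the fibrils crosslinked outside the cell. Of 14 folding and modification genes compared between BM2nd and parental cells none was higher or lower, a count near the 1.83% and 1.53% of all genes. At a 1.5-fold threshold, or with the background subtracted, 3 were higher and 1 was lower. The median log2 ratio was 0.13 over the 16 genes with a probe, against -0.0016 over all genes. In BM1st cells 4 of 15 were higher than in parental cells and 0 lower, and the median was 0.30 over all 16, against 2.04% higher, 1.79% lower and a median of -0.00072 over all genes. Averaging all probes left 1 of the 4 and a log2 threshold of 1.5 left 0. These were the prolyl hydroxylase subunits P4ha1 and P4ha2, at log2 ratios of 1.02 and 1.27, and the lysyl hydroxylases Plod1 and Plod2, at 1.07 and 1.25. They were higher in the line in which Col6a1, Col6a2 and Col5a1 were lowest. P4ha1 had intensities of 392, 796 and 398 in parental, BM1st and BM2nd cells and stood near its parental value in BM2nd cells. P4ha2, Plod1 and Plod2 stayed above their parental values in BM2nd cells, with log2 ratios of 0.93, 0.77 and 0.44. The collagen chaperone gene Serpinh1 was nearly level, at 16615, 17819 and 15537.
Of 7 processing and crosslinking genes compared, 2 were higher in BM2nd than in parental cells and 0 lower, and the median was 0.06 over the 11 genes with a probe, against 1.83% higher and 1.53% lower of all genes. With both arrays above background 1 was left. The paper lists Loxl1 as higher in BM2nd cells on these same arrays, so its place in the count of 2 was known beforehand. Loxl1, a lysyl oxidase of elastic fibres, had intensities of 99.9, 215 and 1505 in parental, BM1st and BM2nd cells, at least 13.7-fold higher in the last than in parental cells, but its other probe was above background on no array. Pcolce encodes an enhancer of procollagen C-proteinase, the enzyme that trims fibrillar procollagen. It had intensities of 2035 in parental, 519 in BM1st and 4625 in BM2nd cells, on its 1 probe. Like Col6a1 it was past the threshold in all 3 comparisons, with log2 ratios of -1.97, 1.18 and 3.16 for BM1st and BM2nd against parental cells and between the sub-lines. The proteinase gene Bmp1 had log2 ratios of -0.59 and -0.05 for BM1st and BM2nd against parental cells, and the collagen-binding Sparc had -0.59 and 0.50. The crosslinking enzyme gene Lox was above background on no array.
Of the 8 collagen receptor genes with a probe, 6 were compared between BM2nd and parental cells, 5 between BM1st and parental cells and 6 between the sub-lines. None was higher or lower, but the shares over all genes were only 1.53% to 3.01%, so few or none would be called in so small a set. The median BM2nd log2 ratio of the 8 genes against parental cells was -0.10. Itgb1, the integrin beta chain shared by the collagen receptors, had 323, 358 and 336 in parental, BM1st and BM2nd cells, and Ddr1 had 573, 704 and 571. Itga1 stood near background, at 113, 131 and 104, and Itga2 and Itga11 were above it on no array.

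**Figure D5:**
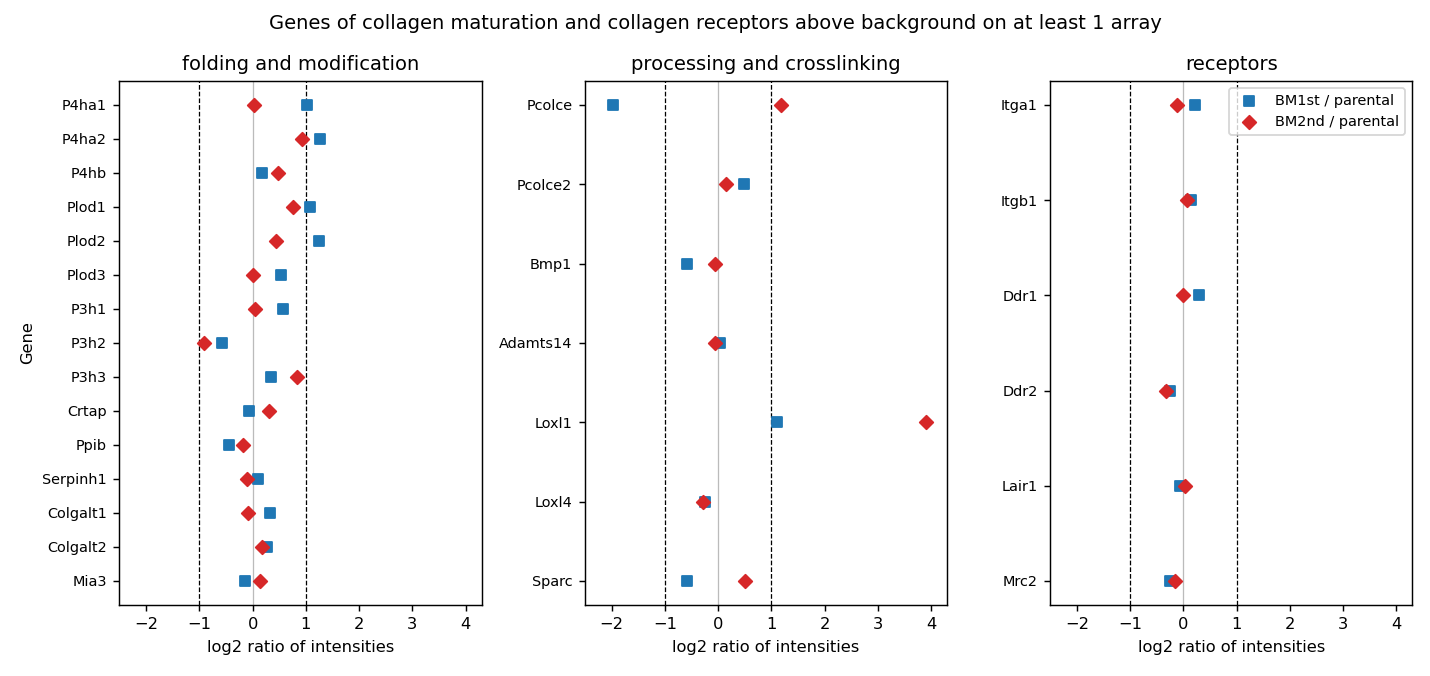
Log2 ratio of BM1st (squares) and BM2nd (diamonds) to parental intensity (horizontal axis) for genes of collagen folding and modification, of processing and crosslinking, and of collagen receptors that are above background on at least 1 array, 1 array per line; dashed lines mark 1 and -1. Pcolce lies at -1.97 in BM1st and 1.18 in BM2nd cells, and the receptors stay within the dashed lines.

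The lines were cultured from bone lesions, and markers of other cells were read beside these genes. Of all 19057 genes with a named probe 9662, 9552 and 10020 were above background in parental, BM1st and BM2nd cells. Of 12 fibroblast and marrow stroma markers 7 were above background in parental and BM1st cells and 9 in BM2nd cells. The summed intensity of the 12 was 11073, 17462 and 27439 in parental, BM1st and BM2nd cells. Probes are not on 1 scale and dim ones were added too, so each sum follows its brightest probes, here Vim, Lum and Dcn. Such sums are not amounts of a cell type. Of 9 compared, 4 were higher in BM2nd than in parental cells, Pdgfra, Lum, Dcn and Dpt, and none was lower, against 1.83% and 1.53% of all genes. Of 7 compared in BM1st cells the same 4 were higher and Fbln1 was lower, at a log2 ratio of -1.01 and 1.15 between the sub-lines, against 2.04% and 1.79%. The paper lists Lum, Dpt and Dcn as higher in BM2nd cells on these same arrays, so their place in the BM2nd count was known beforehand. Pdgfra, a stromal receptor gene, stood at 258, 851 and 1068, while Pdgfrb, Thy1 and Postn were above background on no array. Of 6 osteoblast markers with a probe 3, 2 and 3 were above background, with a sum of 763, 1132 and 767. The osteoblast transcription factor gene Sp7 was at 103, 101 and 197, below the threshold at a log2 ratio of 0.93, with 0.19 at its other probe. Phex stood at 225, 611 and 149 and Alpl at 139, 139 and 129, and the osteocalcin gene Bglap was above background on no array. Of 6 chondrocyte markers 2, 2 and 1 were above background, with a sum of 2630, 7212 and 4464, of which Sox9 gave 2160, 6746 and 4010, and the cartilage proteoglycan gene Acan was above background on no array. Of 6 endothelial markers 2, 1 and 1 were above background, with a sum of 614, 616 and 616. Of 7 leukocyte markers none was above background in parental, 5 in BM1st and 3 in BM2nd cells, with a sum of 671, 2146 and 1062. Lyz2 stood at 79.5, 1078 and 365, Laptm5 at 90.1, 367 and 184 and Fcer1g at 95.4, 255 and 128. Ptprc was near background in BM1st cells, at 111, and Itgam and Tyrobp were above it on no array. In BM1st cells 3 of 5 compared were higher than in parental cells and in BM2nd cells 2 of 3, with 0 lower. Over all genes 2.04% and 1.83% were higher. The osteoblast, chondrocyte and leukocyte sums were highest in BM1st cells, but the first through Phex alone, the second through Sox9 alone and the third mainly through Lyz2. In those cells Col6a1, Col6a2, Col3a1 and Col5a1 were lowest, while Col18a1 was highest and Col8a1 was higher than in parental cells. The stromal sum was highest in BM2nd cells. The part of such cells in the collagen values was not tested.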

How the data were processed

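RNA of 3 cell lines was hybridised to mouse whole-genome bead arrays of Illumina, 1 per line. The deposited values are linear intensities from GenomeStudio 2011.1, per the labels, and how the authors set normalization and background was not stated in the sources read. Sorted intensities differed between arrays by at most 0.274, as after quantile normalization, and their median was 101, so background remained in them and shrank the ratios of dim genes.

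Log2 ratios of the deposited intensities were taken in Python 3.11.15 (numpy 2.4.6, pandas 2.3.3, matplotlib 3.10.9 for plots). The platform annotation pairs 34885 of 45281 probes with 1 gene, and symbols were updated through RefSeq (GRCm38.p6). Of 44 collagen chain genes listed there, 3 have no paired probe and are not analysed here. A gene stands for its probe of highest mean log2 intensity. If just 1 array of a pair exceeded background, the fold is a bound that replaces a dim intensity under background by the background. Probes of 1 gene had a median SD of 0.14 in the BM2nd/parental log2 ratio (3154 genes). Counting was tested on simulated data.

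Members, classes, gene lists and naming rule were chosen with earlier results of these data known. The rule names members above background on at least 1 array with intensities, and of each pathway list the genes past the threshold in BM2nd against parental cells and up to 4 more. The hydroxylase genes and the markers given with values were singled out after their values were seen. Alternatives changed the background, its filter or subtraction, the probe choice, the centring and the threshold, and counting by the bound was added after seeing the data.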

Additional observations from a re-analysis of the deposited data

How the results depend on the processing

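No paired analysis was possible because there is 1 array per line, and no replicate could be left out. The counts of higher and lower collagen chain genes stayed within 1.5 times under no background filter, the 99th percentile as background, centring and, chosen after seeing the data, counting by the bound. Of the 4 genes higher in BM2nd than in parental cells, 2 were left (Col6a1 and Col8a1) when both arrays had to be above background, and 2 (Col1a1 and Col8a1) when all probes, or those above background, were averaged. Col1a1 has 1 probe, so averaging could not change its ratio. Averaging in either way left 0 of the 2 genes lower in BM1st cells. The 1.5-fold threshold gave 7 higher genes in BM2nd cells and 1 in BM1st cells against parental cells. A log2 threshold of 1.5 gave 1 in BM2nd against parental cells, 0 lower in BM1st cells, and 3 in place of 6 between the sub-lines. With the background subtracted 6 genes were higher and 1 was lower, Col7a1, in BM2nd against parental cells, and 1 was higher in BM1st cells, Col8a1. The medians over all 41 members then became -0.13 in BM2nd against parental cells and -0.19 between the sub-lines. Subtraction set dim intensities to a floor of each array, so both medians are ratios of floors and not a shift of the family. Averaging the probes above background moved the median between the sub-lines to 0.17. No log2 ratio of a gene past the threshold changed sign under any of these. Of the log2 ratios of single genes under the alternatives, 396 moved by less than the SD between probes or kept their side of the threshold, 13 fell below it and 42 moved by more. Settings that changed only the background level or its filter could not move a ratio, nor could averaging in genes with 1 probe. Such ratios are counted among the 396, so that number says little of stability. Of the counts for the pathway lists 159 stayed within 1.5 times, 9 became larger and 12 smaller. Dim members near background are limited by the array's signal, so small ratios there do not show equal RNA.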
